A study of Mus musculus with 2 samples.

Results

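The 30 genes described here regulate apoptosis, the programmed death of a cell, and belong to the BCL2 family, the inhibitor of apoptosis (IAP) family and the receptors and mitochondrial factors that act with them. They were chosen by name, the rule used no measured value, and all 30 symbols matched 1 row each of the 36528 NCBI gene identifiers in the deposited tables. The measurements are counts of unique molecular identifiers (UMIs) in cultured mouse epidermal cells, from a droplet kit that reads the 3′ end of transcripts. The KO-labelled library, labelled Bap1 knockout, came from 9 pooled neonates with the genotype Bap1fl/fl Rosa26-CreERT2. The WT-labelled library, labelled Bap1 wild type, came from 11 pooled neonates with Rosa26-CreERT2 alone. All neonates were C57BL/6 mice at postnatal day 1, and both genotypes carried the tamoxifen-inducible recombinase at Rosa26, a locus active in most cell types. Both cultures received 100 nM 4-hydroxytamoxifen for 4 days and then 3 days without it, in medium M254 with human melanocyte growth supplement. Bap1 codes for a nuclear deubiquitinase that acts on histone H2A, and the comparison asks how apoptosis genes differ in epidermal cells after its deletion.

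In the mitochondrial pathway of apoptosis, pro-survival BCL2 proteins bind and restrain the effectors BAX and BAK, and BH3-only proteins release that restraint. Active effectors open the outer mitochondrial membrane, cytochrome c then assembles the apoptosome with APAF1 and caspase 9, and IAP proteins hold caspases in check. Death receptors at the cell surface start a second route through the adaptor FADD and caspase 8. Keratinocytes of the epidermis keep this machinery while they divide in the basal layer and while they differentiate, and melanocytes are known for high levels of BCL2.

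With 1 library per genotype no spread between replicates exists, and no test of any difference was made. Each ratio is KO-labelled over WT-labelled on the log2 scale, and each 95% interval, written in parentheses, covers counting error only. Every difference is therefore one between these 2 libraries. A level is the number of UMIs of a gene per 1000000 UMIs of the same cells (CPM). The kit counts each transcript by a tag at its 3′ end, so levels of different genes are compared as tag counts, which do not grow with transcript length. A ratio was computed for a gene with at least 20 UMIs over both libraries, and a gene was called higher or lower at a 1.5-fold difference.

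The sequences that follow are shown because these 3 members had the highest ratio, the lowest ratio and the next lowest ratio of the 26 with a ratio. Each is the 250 bases before a RefSeq transcription start in GRCm38, read 5′ to 3′ on the strand of the gene. Capitals mark 4 sets of letters searched on both strands, GTAAACA (the core bound by FOXO factors), TGATGCAA (a motif of ATF4 with CHOP), GGGCGG (the GC box) and CCAAT, and no capitals of different sets overlap. Bbc3 and Bmf have 3 RefSeq windows each. The one shown for Bbc3 is the one with the FOXO letters, and the one shown for Bmf is the most upstream.
Bbc3, chr7:16310011-16310260, + strand: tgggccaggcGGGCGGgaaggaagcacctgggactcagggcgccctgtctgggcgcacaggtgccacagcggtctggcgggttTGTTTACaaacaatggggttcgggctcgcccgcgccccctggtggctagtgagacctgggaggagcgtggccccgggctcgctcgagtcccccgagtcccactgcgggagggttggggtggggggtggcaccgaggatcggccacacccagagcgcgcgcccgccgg
Bmf, chr2:118549687-118549936, − strand: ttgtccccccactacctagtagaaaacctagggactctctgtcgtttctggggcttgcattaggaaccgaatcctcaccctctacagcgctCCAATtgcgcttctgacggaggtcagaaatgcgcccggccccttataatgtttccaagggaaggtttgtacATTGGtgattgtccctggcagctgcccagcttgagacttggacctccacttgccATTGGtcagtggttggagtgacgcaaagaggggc
Bcl2, chr1:106714291-106714540, − strand: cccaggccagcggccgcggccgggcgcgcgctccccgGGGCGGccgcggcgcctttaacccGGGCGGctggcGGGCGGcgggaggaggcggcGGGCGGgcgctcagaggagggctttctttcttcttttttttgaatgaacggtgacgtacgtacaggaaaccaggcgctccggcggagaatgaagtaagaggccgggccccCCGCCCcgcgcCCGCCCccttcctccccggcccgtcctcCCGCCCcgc
The Bbc3 window held 1 match to the FOXO letters, on the opposite strand and 167 bases before the start, and 1 GC box. The Bmf window held 3 CCAAT boxes, and the Bcl2 window held 7 GC boxes. Bbc3 and Bcl2 windows were rich in CpG, with 23 and 36 CpG, while the Bmf window had 8, against a median of 6 over all 32851 windows of the same length. The FOXO letters were in 3.17% of all windows, the ATF4 and CHOP letters in 0.791%, the GC box in 32.7% and CCAAT in 33.9%. The 27 members with a window in the table had 38 windows. Of these windows 2 held the FOXO letters, 1 the ATF4 and CHOP letters, 25 a GC box and 8 CCAAT. Counted by member, with a match in any window, 2 had the FOXO letters (Bbc3 and Bcl2l11) and 1 the ATF4 and CHOP letters (Bcl2a1b). A GC box was found for 21 members and CCAAT for 6. These matches describe the letters and do not show that a factor binds there.

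A further set of sequences is shown for Bcl2a1a, Bcl2a1b and Bcl2a1d, the mouse copies of the pro-survival gene A1 on chromosome 9. They are nearly identical in coding sequence, and reads may be split among them. The first 90 coding bases from the GENCODE M21 transcripts hold 6 of the 12 positions, in capitals, at which any copy differs over the 519 coding bases.
Bcl2a1a: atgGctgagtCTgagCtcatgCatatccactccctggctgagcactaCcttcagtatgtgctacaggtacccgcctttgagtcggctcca
Bcl2a1b: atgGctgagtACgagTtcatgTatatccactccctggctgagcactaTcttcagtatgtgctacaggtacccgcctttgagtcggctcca
Bcl2a1d: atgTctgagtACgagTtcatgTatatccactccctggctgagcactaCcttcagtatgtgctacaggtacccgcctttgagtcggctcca
Coding identity was 97.9% between Bcl2a1a and Bcl2a1b, 98.7% between Bcl2a1a and Bcl2a1d and 98.8% between Bcl2a1b and Bcl2a1d. The 3′ ends that the kit reads were not compared, so how far reads are split among the copies was not tested. For that reason the level of each copy is uncertain.

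The KO-labelled library held 64954113 UMIs in 1760 cells and the WT-labelled library 77579465 UMIs in 1926 cells, and 1738 KO-labelled and 1912 WT-labelled cells were kept. Keratin-rich cells, clusters 0 to 5 of a clustering of both libraries together, were 1597 KO-labelled and 1754 WT-labelled cells, with 62271066 UMIs KO-labelled and 74325592 WT-labelled. The basal keratin Krt14, which marks epidermal keratinocytes, stood at 4598 CPM KO-labelled and 5736 WT-labelled in this class, against 289 KO-labelled and 485 WT-labelled in melanocyte-like cells. Different clusters hold most of this class in the 2 libraries. Clusters 0 (led by Acta2) and 2 (led by Nupr1 and Gdf15 among others) had 472 and 641 KO-labelled cells but 24 and 33 WT-labelled cells. Clusters 1 (Ccl20, Cxcl5) and 5 (Col17a1, Trp63) had 144 and 56 KO-labelled cells but 802 and 444 WT-labelled cells. The dividing cluster 3 (Ube2c, Aurka) had 19 KO-labelled and 143 WT-labelled cells, and cluster 4, with 7 markers of suprabasal keratinocytes, was the balanced one with 265 KO-labelled and 308 WT-labelled. Smaller classes were melanocyte-like cells (56 KO-labelled, 22 WT-labelled), Schwann-like cells (36 KO-labelled and 59 WT-labelled), myeloid-like cells (20 KO-labelled and 36 WT-labelled) and an unnamed cluster 6 with 7 fibroblast and 5 skeletal muscle markers (29 KO-labelled and 41 WT-labelled). Bap1 RNA itself was higher in the KO-labelled library, at 19.6 CPM against 14.0 in WT-labelled keratin-rich cells, a log2 ratio of 0.48 (0.36 to 0.60), and it was higher in 6 of 6 keratin-rich clusters. This goes against the label, and the sources used here do not state which exons were deleted, so that a 3′ tag beyond them would be no check. Every direction given here rests on the labels. The libraries shared 3 cell barcodes.

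In keratin-rich cells most apoptosis regulators had close to the same level in both libraries, with 2 exceptions, both BH3-only genes and in opposite directions. Bbc3, which codes for PUMA, was 1.85-fold higher in the KO-labelled library. Bmf, whose protein is tied to the cytoskeleton in healthy cells, was 1.71-fold lower in the KO-labelled library. Of 30 members 26 had enough UMIs for a ratio (the others were the 3 A1 genes and Hrk), and 1 of them was higher in KO-labelled cells, where the share of all 16754 genes with as many UMIs was 7.74%. 1 was lower, where the share of all genes was 17.4%. The median log2 ratio of the 26 was 0.07, with 15 above 0 and 11 below, against −0.02 over all genes.

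**Figure D1:**
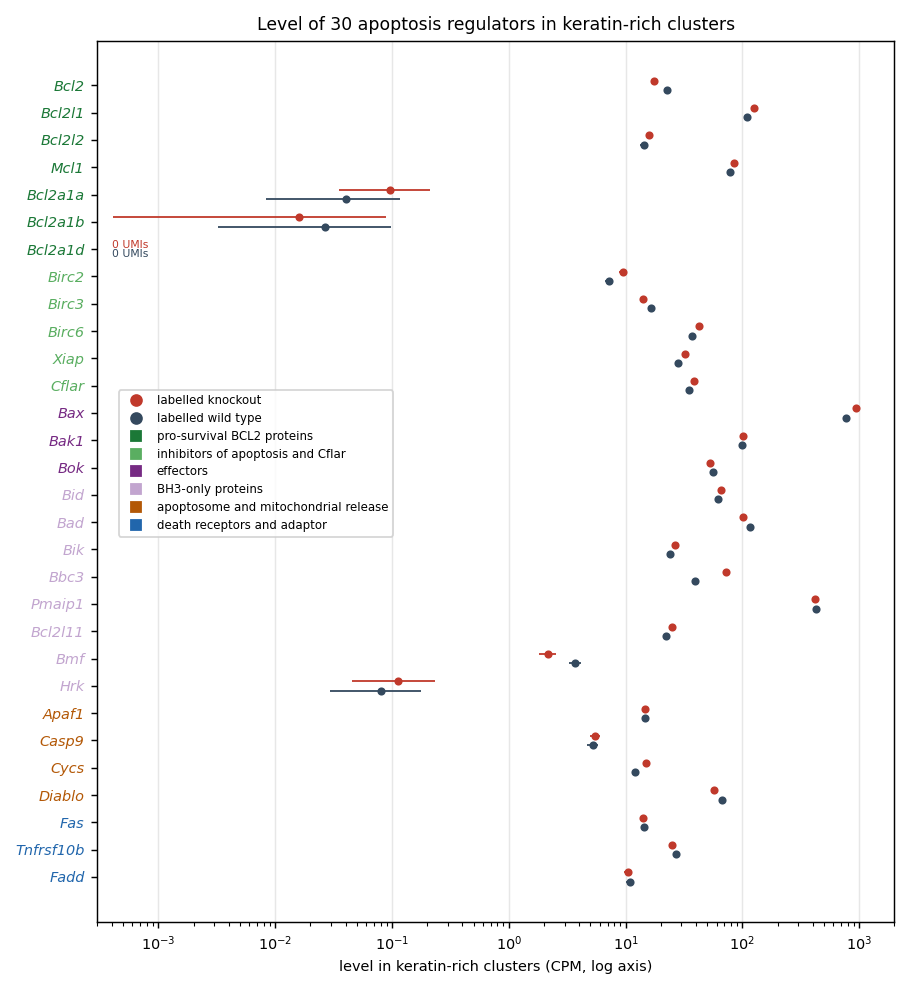
Level of each of the 30 members in keratin-rich cells, in CPM on a log axis, with 95% counting intervals; red points are the KO-labelled and blue points the WT-labelled library, and gene names are coloured by role. Levels run from 0 UMIs for Bcl2a1d to 945 CPM KO-labelled and 763 CPM WT-labelled for Bax, and the points of a gene lie far apart on this axis only at the lowest counts and for Bbc3 and Bmf.

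**Figure D2:**
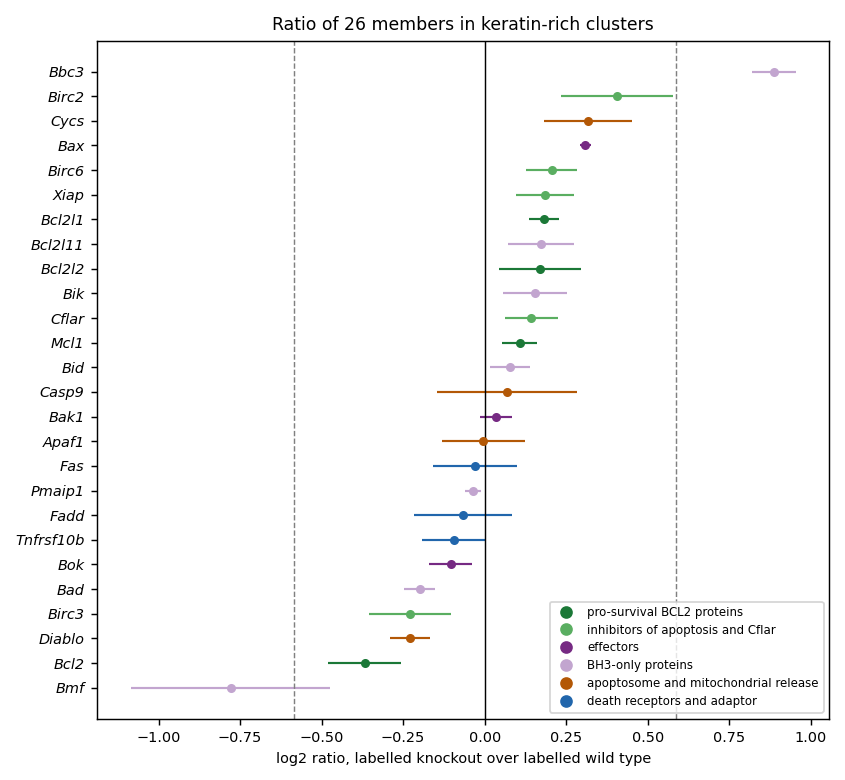
Log2 ratio, KO-labelled over WT-labelled, of the 26 members with at least 20 UMIs in keratin-rich cells, with 95% counting intervals, ordered by size; dashed lines mark 1.5-fold. Bbc3 at 0.89 lies past the upper line and Bmf at −0.78 past the lower line, and the other 24 lie between the lines.

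Among pro-survival BCL2 genes, Bcl2l1 (BCL-XL) and Mcl1 gave most of the RNA. Bcl2l1, on chromosome 2 at 152758732 to 152833803, had 7762 UMIs KO-labelled and 8171 WT-labelled, or 125 CPM KO-labelled and 110 WT-labelled, a log2 ratio of 0.18 (0.14 to 0.23). This was 51.4% of the UMIs of the pro-survival group in KO-labelled and 48.8% in WT-labelled cells. Mcl1, whose protein is short-lived and renewed continually, had 84.5 CPM KO-labelled and 78.4 WT-labelled, a log2 ratio of 0.11 (0.05 to 0.16). The share of the group was 34.8% in both libraries. Within clusters Mcl1 was lower in KO-labelled cells in 5 of 6, with no interval below 0, and higher in cluster 2 (0.42, 0.07 to 0.78).

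Bcl2, the founding member of the family, had the lowest ratio of the measured pro-survival genes. It had 1086 UMIs KO-labelled and 1673 WT-labelled, or 17.4 CPM KO-labelled and 22.5 WT-labelled, a log2 ratio of −0.37 (−0.48 to −0.26). Its share of the group was 7.19% (6.78 to 7.61%) in KO-labelled and 10.0% (9.55 to 10.46%) in WT-labelled cells. Bcl2 lies on chromosome 1 at 106538176 to 106714290, and an exon of D630008O14Rik overlaps it on the other strand. Bcl2l2 (BCL-W) stood at 16.0 CPM KO-labelled and 14.2 WT-labelled, a log2 ratio of 0.17 (0.04 to 0.30). The 3 A1 genes were close to 0 in keratin-rich cells, with 6 UMIs KO-labelled and 3 WT-labelled for Bcl2a1a, 1 KO-labelled and 2 WT-labelled for Bcl2a1b and 0 in both for Bcl2a1d. For Bcl2a1d a count of 0 allows at most 0.0482 CPM in KO-labelled and 0.0404 in WT-labelled keratin-rich cells (3 counts of the total).

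Over all keratin-rich cells the IAP genes and Cflar all stayed within 1.5-fold. Birc6, the giant IAP that also carries a ubiquitin-conjugating domain, was the most abundant of them, with 2643 UMIs KO-labelled and 2736 WT-labelled, or 42.4 CPM KO-labelled and 36.8 WT-labelled, a log2 ratio of 0.21 (0.13 to 0.28). Xiap, a direct inhibitor of caspases, had 31.9 CPM KO-labelled and 28.1 WT-labelled, a log2 ratio of 0.19 (0.10 to 0.27). Within clusters Xiap was lower in KO-labelled cells in 4 of 6, with no interval below 0, and higher in 2, of which cluster 4 had its interval above 0 (0.30, 0.07 to 0.53). Cflar, which codes for the caspase 8 regulator FLIP, had 38.7 CPM KO-labelled and 35.1 WT-labelled.

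Birc2 and Birc3 code for cIAP1 and cIAP2, ubiquitin ligases of the TNF receptor complex. Their ratios had opposite signs over all keratin-rich cells. Birc2 had 9.54 CPM KO-labelled and 7.20 WT-labelled, a log2 ratio of 0.41 (0.24 to 0.58), the second highest of the 26. Birc3, its neighbour on chromosome 9, had 14.1 CPM KO-labelled and 16.6 WT-labelled, a log2 ratio of −0.23 (−0.36 to −0.10). Within clusters Birc2 was higher in KO-labelled cells in 5 of 6, with 1 interval above 0 and log2 ratios from −1.32 to 1.98. Birc3 was lower in 4 of 6 clusters and higher in 2, and every one of these intervals included 0.

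Bax dominated the effectors. It had 58837 UMIs KO-labelled and 56700 WT-labelled, or 945 CPM KO-labelled and 763 WT-labelled, a log2 ratio of 0.31 (0.29 to 0.33), with exons of the gene model Gm45808 overlapping it on the same strand (chromosome 7, 45461695 to 45466903). Bax took 86.0% of the UMIs of the 3 effectors in KO-labelled and 83.1% in WT-labelled cells. Bak1, the other main effector, had 101 CPM KO-labelled and 98.7 WT-labelled, with an interval of the ratio that includes 0 (−0.01 to 0.08). Bok, an effector with less dependence on other BCL2 proteins, had 52.5 CPM KO-labelled and 56.5 WT-labelled, a log2 ratio of −0.10 (−0.17 to −0.04). Within clusters Bok was higher in KO-labelled cells in 4 of 6, with 1 interval above 0. It was lower in 2, with no interval below 0.

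The BH3-only genes held both calls. Bbc3 (chromosome 7, 16308398 to 16318334) codes for PUMA, which binds all pro-survival BCL2 proteins and is a known target of p53 and of FOXO3. It had 4534 UMIs KO-labelled and 2926 WT-labelled, or 72.8 CPM (70.7 to 75.0) KO-labelled and 39.4 (38.0 to 40.8) WT-labelled, a log2 ratio of 0.89 (0.82 to 0.95). The counting intervals of both levels lay apart, and no annotated gene overlaps an exon of Bbc3. After every cell was thinned to 8000 UMIs, 627 of 1597 KO-labelled cells (39.3%, exact interval 36.9 to 41.7%) and 447 of 1754 WT-labelled cells (25.5%, 23.5 to 27.6%) had a Bbc3 UMI. Unthinned shares were 79.5% KO-labelled and 63.5% WT-labelled, at a median depth of 35703 UMIs per KO-labelled and 39656.5 per WT-labelled cell. The myeloid gene Tyrobp, which keratinocytes should lack, gave a thinned share of 1.13% KO-labelled and 1.71% WT-labelled in the same cells. Bbc3 was 10.2% of all BH3-only UMIs in KO-labelled and 5.66% in WT-labelled cells.

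Bmf (chromosome 2, 118528757 to 118549686) was a rare transcript. It had 134 UMIs KO-labelled and 274 WT-labelled, or 2.15 CPM (1.80 to 2.55) KO-labelled and 3.69 (3.26 to 4.15) WT-labelled, a log2 ratio of −0.78 (−1.09 to −0.47). These intervals also lay apart. The thinned share of cells with a UMI was 1.94% (1.32 to 2.74%) KO-labelled and 3.76% (2.92 to 4.76%) WT-labelled. The KO-labelled interval overlaps that of Tyrobp (0.669 to 1.78%), a gene with 3954.5 CPM in KO-labelled myeloid-like cells. Bmf was at most 11.2 CPM KO-labelled (4 UMIs) and 8.95 WT-labelled (7 UMIs) in any class, both in myeloid-like cells. The part of free RNA in the Bmf share was not tested.

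Pmaip1, which codes for NOXA, the BH3-only protein that targets MCL1, was the most abundant BH3-only gene in both libraries. It had 26018 UMIs KO-labelled and 31834 WT-labelled, or 418 CPM KO-labelled and 428 WT-labelled, a log2 ratio of −0.04 (−0.06 to −0.01). Its share of BH3-only UMIs was 58.8% KO-labelled and 61.6% WT-labelled. The sum of all 8 BH3-only genes was 711 CPM KO-labelled and 696 WT-labelled.

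Over all keratin-rich cells the other BH3-only genes with a ratio stayed within 1.5-fold, but single clusters went past it. Within the 6 clusters the log2 ratio of Bik ran from −0.18 to 1.055, with 2 intervals above 0. That of Bid ran from −0.17 to 0.70, with 3 intervals above 0. Bad, whose protein is held inactive by phosphorylation under growth factor signals, had 101 CPM KO-labelled and 116 WT-labelled, a log2 ratio of −0.20 (−0.25 to −0.15). Bid, the link between caspase 8 and mitochondria, had 65.1 CPM KO-labelled and 61.7 WT-labelled. Bik, a BH3-only protein of the endoplasmic reticulum, had 26.6 KO-labelled and 23.9 WT-labelled. Bcl2l11 (BIM) had 24.9 CPM KO-labelled and 22.1 WT-labelled, a log2 ratio of 0.17 (0.07 to 0.27). Hrk, known mainly from neurons, had 7 UMIs KO-labelled and 6 WT-labelled and no ratio.

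Of the genes that act after the mitochondrial membrane opens, Diablo (SMAC, an IAP antagonist released from mitochondria) was the most abundant. It had 3587 UMIs KO-labelled and 5018 WT-labelled, or 57.6 CPM KO-labelled and 67.5 WT-labelled, a log2 ratio of −0.23 (−0.29 to −0.17). Diablo lies on chromosome 5 at 123511330 to 123524164, and exons of annotated genes overlap it on both strands. Cycs (cytochrome c) had 15 CPM KO-labelled and 12.1 WT-labelled, a log2 ratio of 0.32 (0.18 to 0.45), the third highest. Apaf1, the scaffold of the apoptosome, had 14.7 CPM in both libraries. Casp9, its initiator caspase, had 5.48 CPM KO-labelled and 5.22 WT-labelled, with an interval of the ratio from −0.15 to 0.28.

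None of the 3 genes of the death receptor route was called. Tnfrsf10b, the mouse receptor for TRAIL (chromosome 14, 69767472 to 69784411), was the most abundant, with 1560 UMIs KO-labelled and 1988 WT-labelled, or 25.1 CPM KO-labelled and 26.7 WT-labelled. Fas, the receptor of Fas ligand, had 14.2 CPM KO-labelled and 14.5 WT-labelled, and Fadd, the adaptor that links these receptors to caspase 8, had 10.4 KO-labelled and 10.9 WT-labelled. The intervals of all 3 ratios include 0, and the widest of them runs from −0.22 to 0.08, for Fadd.

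Bbc3 was higher in KO-labelled cells in 6 of 6 keratin-rich clusters, with all 6 counting intervals above 0. In cluster 4, where both libraries have many cells, it had 59.5 CPM KO-labelled and 37.8 WT-labelled, a log2 ratio of 0.65 (0.48 to 0.83). The ratio was smallest in cluster 1, at 55.9 CPM KO-labelled and 49.1 WT-labelled (0.19, 0.01 to 0.36), and largest in cluster 0, at 54.5 KO-labelled and 20.2 WT-labelled (1.43, 0.78 to 2.17), where 24 WT-labelled cells gave 19 UMIs. Cluster 2 had the highest Bbc3 level of the 6 clusters in both libraries, at 104 CPM KO-labelled and 66.4 WT-labelled. Without cluster 2, which held 641 KO-labelled and 33 WT-labelled cells, the log2 ratio in keratin-rich cells was 0.49 and no member was called higher. With equal weight for each cluster it was 0.65.

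**Figure D3:**
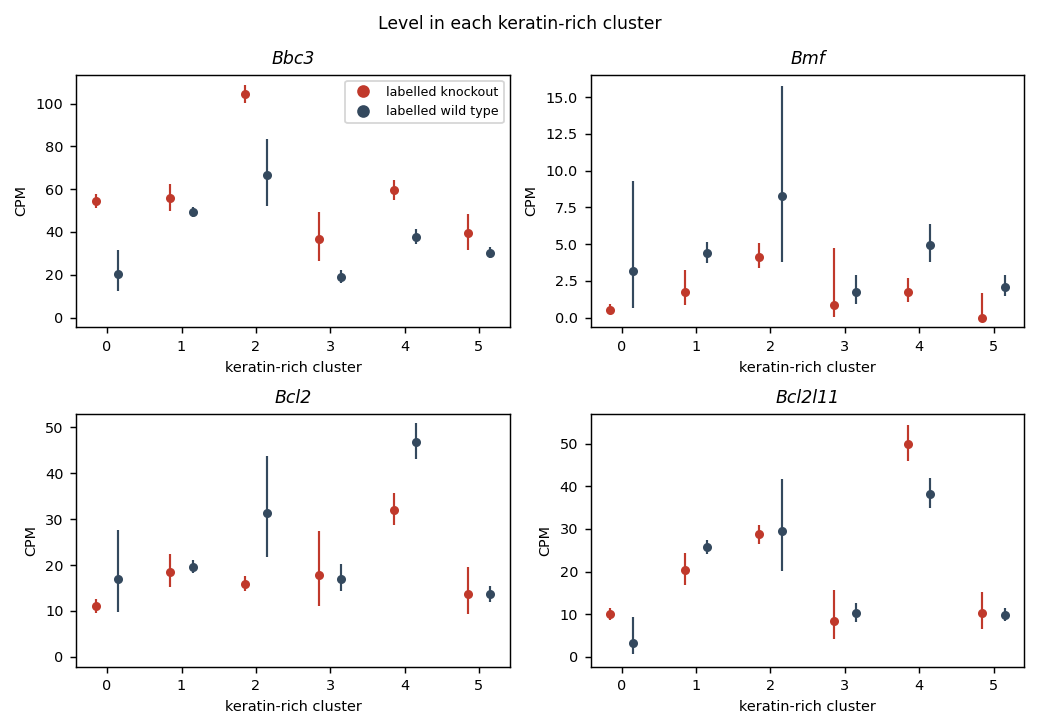
Level of Bbc3, Bmf, Bcl2 and Bcl2l11 in each of the 6 keratin-rich clusters, in CPM with 95% counting intervals; red points are KO-labelled and blue points WT-labelled. The red point lies above the blue point for Bbc3 and below it for Bmf in every cluster, and wide intervals mark clusters with few cells of 1 library.

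Bmf had the lower level in KO-labelled cells in 4 of the 4 clusters with enough UMIs for a ratio, with 3 of 4 intervals below 0. In cluster 4 it had 1.72 CPM KO-labelled and 4.93 WT-labelled from 19 UMIs KO-labelled and 60 WT-labelled, a log2 ratio of −1.52 (−2.35 to −0.76). In cluster 5, 0 UMIs KO-labelled stood against 37 WT-labelled, and the log2 ratio of −0.66 is a bound set against 3 counts. Bmf was highest in cluster 2, at 4.14 CPM KO-labelled and 8.30 WT-labelled. Without cluster 0 the log2 ratio over the remaining clusters was −0.35, and without cluster 1 it was −0.49, so that no member was called lower in either case. Without cluster 2 it was −1.84.

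Bcl2 was highest in the suprabasal cluster 4, with 32.1 CPM KO-labelled and 46.9 WT-labelled, a log2 ratio of −0.55 (−0.74 to −0.35). It was lower in KO-labelled cells in 4 of 6 clusters, with 2 intervals below 0. The other of these was cluster 2, with 15.9 CPM KO-labelled and 31.3 WT-labelled (−0.98, −1.49 to −0.43). Melanocyte markers, 10 genes summed, stood at 459 CPM KO-labelled and 4314 WT-labelled in that cluster, against 281 KO-labelled and 352 WT-labelled in cluster 0. Bcl2 is itself high in melanocyte-like cells, and the part of pigment cell RNA in the cluster 2 value was not tested. In cluster 4 the same sum was 322 KO-labelled and 367 WT-labelled.

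**Figure D4:**
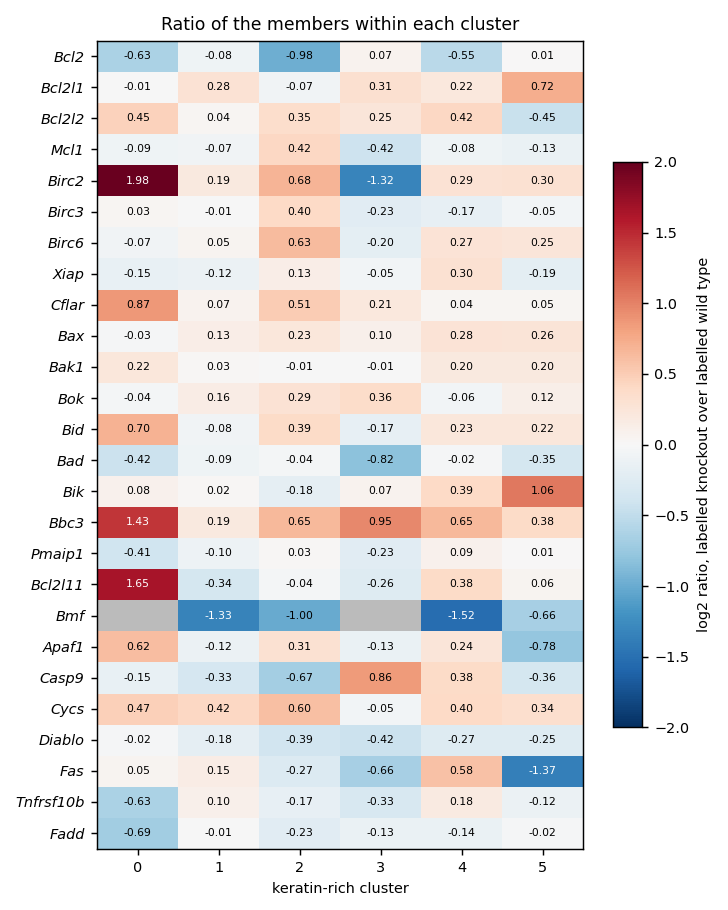
Log2 ratio, KO-labelled over WT-labelled, of 26 members (down) within each keratin-rich cluster (across), with the value in each field; red is higher in KO-labelled cells, blue is lower, and grey fields had fewer than 20 UMIs. The Bbc3 row is red throughout, and the Bad, Diablo and Fadd rows are blue throughout, with pale fields among them.

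Some members kept 1 direction in every cluster. Cflar was higher in KO-labelled cells in 6 of 6 clusters, with 2 intervals above 0 and log2 ratios from 0.04 to 0.87. Bad, Diablo and Fadd were lower in 6 of 6, with 3, 4 and 0 intervals below 0. Their lowest log2 ratio in a cluster was −0.82 for Bad, −0.42 for Diablo and −0.69 for Fadd. Bax was higher in 5 of 6, with 4 intervals above 0 and log2 ratios from −0.03 to 0.28. All of these lie below the Bax ratio of 0.31 over all keratin-rich cells. Bcl2l1 was higher in 4 clusters, each with its interval above 0, and lower in 2, with a lowest log2 ratio of −0.07 and a highest of 0.72 (0.54 to 0.89) in cluster 5 from 147 CPM KO-labelled and 89.3 WT-labelled.

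Others differed in sign between clusters. Bcl2l11 was highest in cluster 4, at 49.98 CPM KO-labelled and 38.3 WT-labelled (0.38, 0.20 to 0.56), and lower in KO-labelled cells in cluster 1, at 20.3 KO-labelled and 25.7 WT-labelled (−0.34, −0.64 to −0.06). Over the 6 clusters its log2 ratio ran from −0.34 to 1.65, with 2 intervals above 0 and 1 below. The value of 1.65 was in cluster 0, which held 24 WT-labelled cells. Fas in cluster 4 had 10.2 CPM KO-labelled and 6.82 WT-labelled (0.58, 0.16 to 1.01), and in cluster 5 it had 10.6 KO-labelled and 27.5 WT-labelled (−1.37, −2.03 to −0.78). Differences between clusters were not tested. Pmaip1 ranged from 298 to 556 CPM over the clusters KO-labelled and from 298 to 736 WT-labelled, and Mcl1 was highest in cluster 4 in both libraries, at 139 CPM KO-labelled and 147 WT-labelled. Bok was highest in the dividing cluster 3, at 159 CPM KO-labelled and 124 WT-labelled (0.36, 0.13 to 0.59).

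In the balanced cluster 4 alone, 26 members had a ratio. 1 was higher (Bbc3), beside 8.9% of all genes with as many UMIs there, and 1 was lower (Bmf), beside 13.9%. The median log2 ratio of the members in that cluster was 0.23, with 18 above 0 and 8 below, against 0.01 over all genes. In the clusters held mostly by 1 library, the counts were 6 higher and 3 lower in cluster 0 (all genes: 15% and 20.4%), 0 and 1 in cluster 1 (5.98% and 18.6%), and 4 and 3 in cluster 2 (11.4% and 18.6%). They were 2 and 3 in cluster 3 (7.69% and 20.9%) and 2 and 3 in cluster 5 (6.7% and 21.1%). The ratios in cluster 0 rest on 24 WT-labelled cells.

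The levels also differed between cell types. Bcl2 had its highest level in melanocyte-like cells, at 102 CPM KO-labelled (66 UMIs) and 103 WT-labelled (27 UMIs), which was 5.82-fold the keratin-rich level KO-labelled and 4.58-fold WT-labelled. Schwann-like cells, of the same neural crest lineage, followed with 38.9 CPM KO-labelled and 56.3 WT-labelled. Myeloid-like cells had 2 UMIs KO-labelled and 7 WT-labelled. The intervals of melanocyte-like and Schwann-like cells lay apart in the KO-labelled library (78.6 as the lower bound, 62.3 as the upper) and overlapped in the WT-labelled one.

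The A1 copies were found in myeloid-like cells. Bcl2a1a, Bcl2a1b and Bcl2a1d stood there at 56.1, 33.7 and 8.41 CPM in 20 KO-labelled cells, and at 46.0, 43.5 and 12.8 in 36 WT-labelled cells. Melanocyte-like and Schwann-like cells had 0 UMIs of all 3 in both libraries. The keratin-rich level of Bcl2a1a was 0.172% of the myeloid-like level KO-labelled and 0.0877% WT-labelled, beside 0.0493% KO-labelled and 0.105% WT-labelled for the myeloid marker Lyz2. Over all 10 myeloid markers the same measure ran from 0.0374 to 13.1% KO-labelled and from 0.0722 to 17.0% WT-labelled. Its highest values came from Aif1 and Cd74, which were low in myeloid-like cells. Aif1 had 7 UMIs there KO-labelled and 28 WT-labelled, and Cd74 had 4 KO-labelled and 15 WT-labelled. The part of free RNA in the few keratin-rich UMIs of the A1 copies was not tested. Whether the 3′ tags of the copies can be told apart was not tested, so their relative levels are uncertain.

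Pmaip1 was abundant in keratin-rich cells and much lower in other types. Melanocyte-like cells had 67.7 CPM KO-labelled and 68.8 WT-labelled, Schwann-like cells 38.9 KO-labelled and 25.7 WT-labelled, and myeloid-like cells 58.9 KO-labelled and 34.5 WT-labelled, against 418 KO-labelled and 428 WT-labelled in keratin-rich cells. The basal keratin Krt5, which these types should lack, stood at 66.2 CPM KO-labelled and 130 WT-labelled in melanocyte-like cells, against 595 KO-labelled and 1058 WT-labelled in keratin-rich cells. The part of free keratinocyte RNA in the Pmaip1 levels of these types was not tested. Cluster 6 was the exception, with 532 CPM KO-labelled and 282 WT-labelled, a log2 ratio of 0.91, and Krt5 there was 164 KO-labelled and 285 WT-labelled. Skeletal muscle markers summed in cluster 6 stood at 1.24 CPM KO-labelled and 633 WT-labelled, and the part of this difference in cell mix in the Pmaip1 value was not tested.

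Bik and Tnfrsf10b also had their highest level in keratin-rich cells in both libraries. Melanocyte-like, Schwann-like and myeloid-like cells had 1, 2 and 3 UMIs of Bik KO-labelled and 0, 2 and 3 WT-labelled. Tnfrsf10b had 3, 0 and 1 UMIs in the same classes KO-labelled and 1, 1 and 4 WT-labelled. Bok was the third gene with its highest level in keratin-rich cells in both libraries, with 54.5 CPM in WT-labelled cluster 6 close behind, and Bid was low in myeloid-like cells, at 16.8 CPM KO-labelled and 17.9 WT-labelled.

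**Figure D5:**
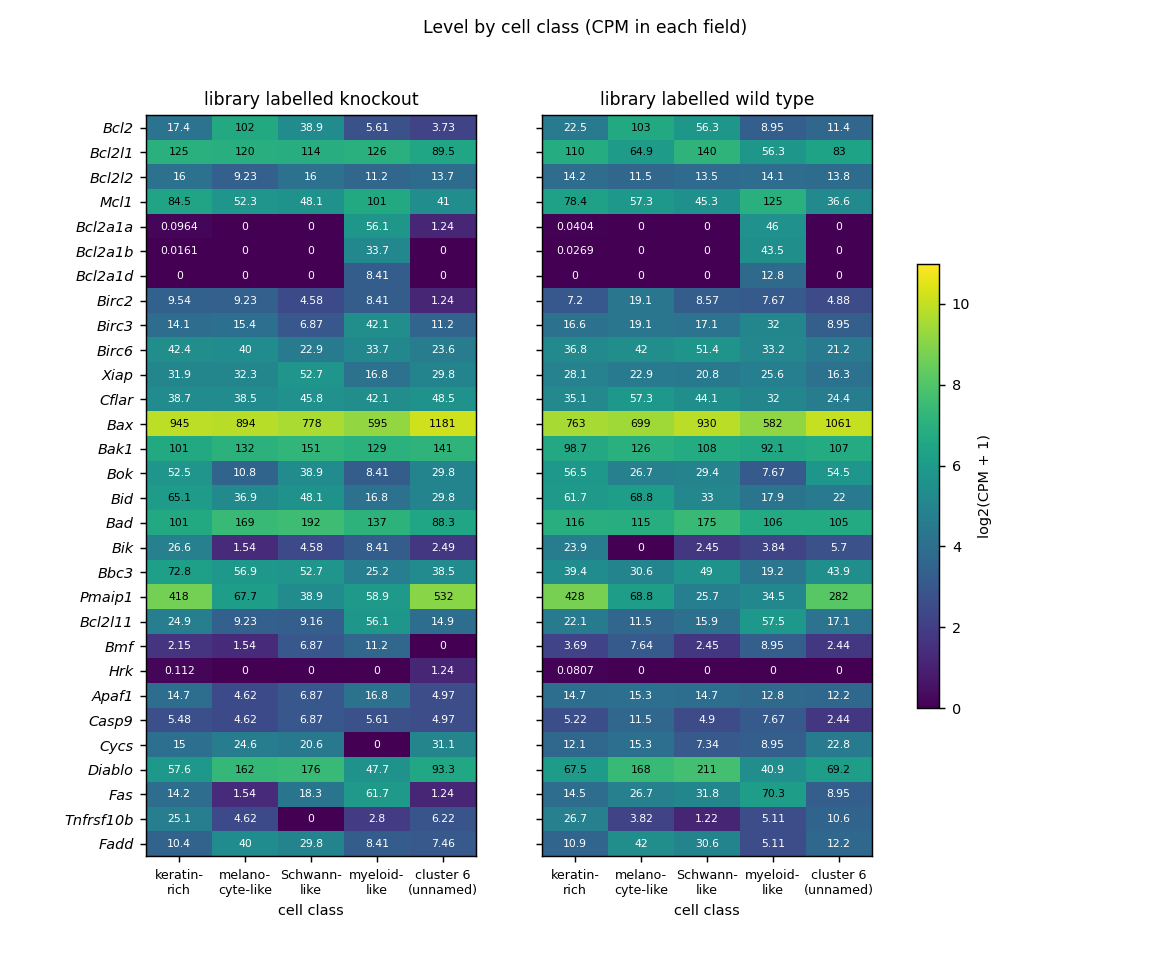
Level of the 30 members (down) in 5 cell classes (across), with the KO-labelled library on the left and the WT-labelled library on the right; the number in each field is CPM and the colour its log2 after adding 1. The A1 copies are at 0 or near it outside myeloid-like cells, Bcl2 is highest in melanocyte-like cells, and Bax is bright in every class.

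Diablo and Fadd showed the opposite order, with higher levels in the neural crest types. Diablo had 162 CPM KO-labelled and 168 WT-labelled in melanocyte-like cells, and 176 KO-labelled and 211 WT-labelled in Schwann-like cells, against 57.6 KO-labelled and 67.5 WT-labelled in keratin-rich cells. Fadd had 40.0 CPM KO-labelled and 42.0 WT-labelled in melanocyte-like cells, and 29.8 KO-labelled and 30.6 WT-labelled in Schwann-like cells, against 10.4 KO-labelled and 10.9 WT-labelled in keratin-rich cells. Fas and Bcl2l11 were highest in myeloid-like cells. Fas had 61.7 CPM KO-labelled and 70.3 WT-labelled there, and Bcl2l11 had 56.1 KO-labelled and 57.5 WT-labelled, which was 2.26-fold the keratin-rich level KO-labelled and 2.61-fold WT-labelled.

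Of the 27 members with at least 20 UMIs in each library, 15 had their highest level in the same class in both libraries. The class was keratin-rich for 3, melanocyte-like for 2, Schwann-like for 2, myeloid-like for 6 and cluster 6 for 2. Many of these places lie within counting error. Among all members highest in each class in the KO-labelled library, the interval lay above that of the second class for 2, 1, 0, 3 and 2. The WT-labelled numbers, in the same order of classes, were 3, 0, 2, 5 and 1. Bmf was highest in myeloid-like cells on 4 UMIs KO-labelled and 7 WT-labelled. Bax was abundant in every class, from 595 CPM in myeloid-like to 1181 in cluster 6 KO-labelled, and from 582 to 1061 in the same classes WT-labelled. In cluster 6 its interval lay above that of the second class in both libraries. Its myeloid-like level was 0.63-fold (0.55 to 0.72) the keratin-rich level KO-labelled and 0.76-fold (0.69 to 0.84) WT-labelled. Bbc3 was found in every class but not evenly. It had 56.9 CPM KO-labelled and 30.6 WT-labelled in melanocyte-like cells (37 UMIs KO-labelled and 8 WT-labelled). Schwann-like cells had 52.7 KO-labelled and 49.0 WT-labelled (23 UMIs KO-labelled and 40 WT-labelled), and cluster 6 had 38.5 KO-labelled and 43.9 WT-labelled. Myeloid-like cells had the lowest levels, at 25.2 CPM KO-labelled and 19.2 WT-labelled (9 and 15 UMIs). That was 0.35-fold (0.16 to 0.66) the keratin-rich level KO-labelled and 0.49-fold (0.27 to 0.80) WT-labelled. After thinning to 8000 UMIs, 33.3% of KO-labelled and 27.1% of WT-labelled Schwann-like cells had a Bbc3 UMI, and 4 of 20 KO-labelled and 4 of 36 WT-labelled myeloid-like cells did.

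Of 63 further genes of these pathways, in 6 lists, 50 had at least 100 UMIs in keratin-rich cells. Of these, 4 were higher at 1.5-fold in KO-labelled cells and 6 lower, where 5.37% and 13.8% of all 13555 genes with as many UMIs were, and their median log2 ratio was 0.06. At 2-fold, 1 was higher and 3 were lower, beside 1.9% and 6.67% of all genes. Birc5, the survivin gene of mitosis, had 13.5 CPM KO-labelled and 57.6 WT-labelled, a log2 ratio of −2.09 (−2.20 to −1.98). Its log2 ratio was −0.19, −1.81, −0.61, 0.20, −1.57 and 0.07 in clusters 0 to 5, of which cluster 3 is the dividing one. Bnip3, a mitochondrial BH3-like gene induced by low oxygen, had 1.89 CPM KO-labelled and 7.43 WT-labelled (−1.97, −2.27 to −1.68), and it was lower in 6 of 6 clusters.

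Xaf1, an antagonist of XIAP, had 4.22 CPM KO-labelled and 9.40 WT-labelled (−1.15, −1.37 to −0.95), and Traf1, a TNF receptor adaptor, had 77 UMIs KO-labelled and 43 WT-labelled (1.10, 0.54 to 1.67). Xaf1 was lower in KO-labelled cells in 6 of 6 clusters, and Traf1 was higher in 3 of the 4 with a ratio. The genes between 1.5-fold and 2-fold were named after their values were seen. Tnfrsf21, the death receptor DR6, had 9.57 CPM KO-labelled and 5.46 WT-labelled. Bcl2l15, a BCL2 family gene of epithelia, had 275 CPM KO-labelled and 470 WT-labelled, and E2f1, a cell cycle factor, had 8.45 KO-labelled and 15.8 WT-labelled. Within clusters 0 to 5 the log2 ratio of Bcl2l15 was −0.09, 0.31, −0.72, 0.04, −0.40 and 0.81, higher in KO-labelled cells in 3 of 6. Tnfrsf21 ran from −0.57 in cluster 3 to 0.92 in cluster 2, and E2f1 from −1.11 in cluster 4 to 0.50 in cluster 5. Casp8, the initiator caspase of the death receptor route, had 156 CPM KO-labelled and 103 WT-labelled (0.60, 0.55 to 0.64). Ddit3, which codes for the stress factor CHOP, had 110 KO-labelled and 65.2 WT-labelled (0.75, 0.70 to 0.81). Trp53 and Foxo3, known to act on Bbc3, were named outside the naming rule and lie below 1.5-fold. Trp53, which codes for p53, had 339 CPM KO-labelled and 285 WT-labelled (0.25, 0.22 to 0.28), and Foxo3 had 25.9 KO-labelled and 21.5 WT-labelled (0.27, 0.17 to 0.37). Over the 9 measured factors of their list the log2 ratio ran from −0.90 to 0.75, with a median of 0.13. The part of any of them in the Bbc3 ratio was not tested.

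The counts by list stand beside 5.37% of all genes with at least 100 UMIs higher at 1.5-fold and 13.8% lower. No list was tested against these shares. The other BCL2 family and mitochondrial partners had 0 of 15 measured genes higher and 2 lower at 1.5-fold, and the other IAP genes and antagonists had 0 of 4 higher and 2 lower. Other caspases and execution genes had 1 of 10 higher and 1 lower, and other death receptor genes 2 of 9 higher and 0 lower. Transcription factors known to act on BH3-only genes had 1 of 9 higher and 1 lower. Genes of MCL1 protein turnover had 0 of 3 past 1.5-fold in either direction.

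Exons of other annotated genes overlap 4 members on the same strand, namely Bcl2l2, Bcl2a1b, Bax and Diablo, and 8 members on the other strand, and the sources used here do not say whether the counting used strand. Levels of those members may hold UMIs of the overlapping gene.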

How the data were processed

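The authors deposited 1 table of UMI counts per library, genes by cells, made with the 10x Genomics Chromium 3′ v2 kit per the labels' protocols. The submitters' processing notes name mm10, Cell Ranger 2.1 and Seurat 2.0 without their roles. About 6000 viable cells were loaded per library. A minimum of 500 detected genes and a maximum of 10% mitochondrial UMIs per cell removed 16 KO-labelled and 13 WT-labelled cells. Scrublet marked 7 (0.398%) KO-labelled and 1 (0.0519%) WT-labelled cells as doublets, too few for the caller to have worked, so doublets may remain. The 2 libraries were clustered jointly with no integration, with counts scaled to 10000 per cell, a log transform, 2000 variable genes (5 of them members), 30 principal components, 15 neighbours and a Leiden resolution of 0.5.

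Names of clusters came from marker sets, where 3 or more markers reached 5-fold over the remaining clusters, and they are rebuilt, not the authors'. UMIs were summed per class and library. Intervals (95%) are exact Poisson for levels, conditional exact for ratios and Clopper-Pearson for shares of cells. PCR and pooling errors are outside these intervals. Members and lists were chosen with earlier results of these data known. All 30 members are named, and further genes by a 2-fold ratio with at least 100 UMIs, apart from those named outside this rule above. The result of 1 further gene is not reported here. The code for the ratios was tested on simulated data. Symbols and promoter windows came from RefSeq GRCm38.p6 and overlaps from GENCODE M21, and 31049 of 36528 identifiers had a symbol. Python 3.11.15, scanpy 1.11.5, scipy 1.17.1, numpy 2.4.6, pandas 2.3.3 and igraph 0.11.9 were used. The alternatives were other cell filters, doublets kept, other resolutions, clustering without the members, centred ratios, equal weights for cells or clusters, a common UMI minimum, all cells, no top cell, a higher UMI minimum, other thinning, and, chosen after seeing the data, each keratin-rich cluster left out.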

Additional observations from a re-analysis of the deposited data

How the results depend on the processing

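Over 19 alternatives the ratios of the 26 measured members gave 494 values, of which 415 moved by less than the counting interval and 79 by more, with 0 reversals of a called member. The log2 ratio of Bbc3 ran from 0.49 to 1.26 and was past 1.5-fold in 18 of 19, and that of Bmf ran from −1.84 to −0.35 and was past it in 17 of 19. The count of members higher was 0 without cluster 2. The count of members lower was 0 without cluster 0, 0 without cluster 1 and 2 with all cells kept, where Bcl2a1b joined Bmf. The median log2 ratio of the members stayed between 0.03 and 0.15. The cause of these changes was not tested. Centring on the median of all genes with at least 100 UMIs moved ratios by 0.000855. The minimum of 100 UMIs kept the same 26 members in keratin-rich cells, so it could change no ratio. These settings are among the 19, so the counts out of 19 include settings that could not alter a call. The number of members highest in a class in both libraries was 3 for keratin-rich, 2 for melanocyte-like, 2 for Schwann-like and 2 for cluster 6. In the KO-labelled library alone it was 7, 2, 6 and 4, and in the WT-labelled library alone 6, 8, 5 and 2. The share of keratin-rich cells with a Bbc3 UMI was 15.8% KO-labelled and 6.90% WT-labelled after thinning to 2000 UMIs, and 79.5% KO-labelled and 63.5% WT-labelled without thinning. No paired analysis was possible because each genotype had 1 library. Depth limits Hrk, the A1 copies and Bmf in the keratin-rich clusters, and nearly all members in the small classes.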

Other observations

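Within the small classes, single members outside the account above differed between the libraries in ways that rest on few UMIs, and they were chosen after their values were seen. In Schwann-like cells Xiap had 23 UMIs KO-labelled and 17 WT-labelled, or 52.7 CPM KO-labelled and 20.8 WT-labelled, and Birc6 had 10 UMIs KO-labelled and 42 WT-labelled, or 22.9 CPM KO-labelled and 51.4 WT-labelled. In myeloid-like cells Bcl2l1 had 45 UMIs KO-labelled and 44 WT-labelled, or 126 CPM KO-labelled and 56.3 WT-labelled. In melanocyte-like cells Bcl2l1 had 78 UMIs KO-labelled and 17 WT-labelled, or 120 CPM KO-labelled and 64.9 WT-labelled, and Fas had 1 UMI KO-labelled and 7 WT-labelled.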
